A study of Sus scrofa with 48 samples.

Results

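The class II genes of the swine leukocyte antigen (SLA) complex and CD74 were followed pig by pig in gluteus medius muscle (GM), liver and kidney. The members were all probes of an Agilent porcine oligonucleotide array whose RefSeq accession belongs to SLA-DRA, SLA-DRB1, SLA-DQA1, SLA-DQB1, SLA-DMA, SLA-DMB or CD74. There were 18 such probes of 7 genes, out of 1862 genes of the array with a RefSeq symbol. SLA-DRA had 4 probes, SLA-DRB1 5, SLA-DQA1 3, SLA-DMA and CD74 2 each, and SLA-DQB1 and SLA-DMB 1 each. All 864 member spots on the 48 arrays were well above background. 1 of them, SLA-DQB1 in the kidney of pig C2, carried an outlier mark and was left out, so that this value rests on 15 pigs.

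The arrays came from 16 offspring of the F2 generation of a feeding experiment, 8 F2 E and 8 F2 C, with GM, liver and kidney of the same 16 pigs on 1 array each. F2 E pigs descended from F0 boars whose standard diet had been supplemented with methylating micronutrients, namely methionine, choline, betaine, vitamins B6 and B12 and folate. F2 C pigs descended from F0 boars on the standard diet, and the F1 pigs of both lines received the standard diet only. The F2 pigs themselves thus differed by the diet of a grandsire, and each line held 4 barrows and 4 females. Here the control pigs are named C1 to C8 and the experimental pigs E1 to E8. The sire and litter of a pig are not part of the labels used here, so relatives within a line count as separate pigs in every test. The pig numbers of each line fall in a lower series, held by C5 to C8 and E5 to E8, and an upper series, held by C1 to C4 and E1 to E4. This gives 4 sets of 4 pigs. In GM and kidney each slide of 4 arrays carried exactly 1 of these sets, so slide and set cannot be told apart there. In the liver, pigs C5, C6, E5 and E6 shared a slide, as did C7, C8, E7 and E8.

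Class II molecules display peptides from engulfed material to helper T cells. Each is a pair of an α and a β chain, SLA-DRA with SLA-DRB1 and SLA-DQA1 with SLA-DQB1. The invariant chain CD74 fills the groove of a new pair and steers it to the endosome, where the dimer of SLA-DMA and SLA-DMB removes the remnant of CD74 and edits the peptide cargo. Dendritic cells, macrophages and B cells carry the molecules constantly, and interferon gamma induces them in many other cells, including endothelium. In the pig, SLA-DRB1 and SLA-DQB1 are highly polymorphic between animals, whereas SLA-DRA varies little.

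Between 18830 and 28600 of 43603 probes were well above background per GM array, 23977 to 30658 per liver array and 24932 to 36641 per kidney array. The GM array of E2 and the kidney arrays of E5 and E7 were dim. Their 99th percentile of signal was 22850, 16927 and 18676, against 35119 to 69268 in the other GM arrays and 57300 to 112681 in the other kidney arrays. Values without these 3 arrays are given beside several results. Markers matched the labelled tissues. Of the GM list 9 of 12 listed genes had a probe, myosin heavy chains and CKM among them. It averaged 18.39 to 18.73 on the log2 scale in GM. Elsewhere it averaged at most 7.21, over the 4 genes present in liver and the 6 present in kidney. The liver list (6 of 9, such as ALB) averaged 18.23 to 18.58 in liver, 6.84 to 9.70 in GM and 8.88 to 13.01 in kidney. The kidney list rested on the transporters SLC12A1 and SLC34A1 and averaged 14.26 to 15.42 in kidney, lowest in the dim array of E5. Signals of different probes have no common scale, so levels of members were compared only for 1 probe between pigs or tissues. The list averages above rest on unlike genes per tissue and serve only to check the labels.

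Class II transcripts were higher in liver than in GM for all 7 genes. To compare tissues, the 48 arrays were normalized together and each pig served as its own control in limma. All 18 member probes were called higher in liver than in GM (adjusted p below 0.05), where 35.7% of all 34512 probes were. The median member difference was 0.80 on the log2 scale (0.32 to 1.18), against 0.01 for all probes. A difference of at least 1 on the log2 scale was called for 5 members, all higher in liver, as for 15.0% of all probes. Signal scaled by Agilent's own processing gave 15 calls, again all higher in liver. In these bulk samples, fewer cells of a type and less RNA per cell cannot be told apart.

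The largest of these differences among the brightest probe of each gene lay in the peptide editor. SLA-DMA averaged 11.83 ± 0.25 in GM, 12.91 ± 0.36 in liver and 12.84 ± 0.29 in kidney (SD, n = 16, probe A_72_P025111). SLA-DMB averaged 10.65 ± 0.24 in GM, 11.69 ± 0.33 in liver and 11.67 ± 0.28 in kidney (n = 16, A_72_P375073). All 16 pigs had more of both in liver than in GM, by 1.08 (SE 0.09) and 1.04 (SE 0.09) on the log2 scale, and all 16 had more of both in kidney than in GM. Liver and kidney differed by −0.06 and −0.02 for these probes, and the adjusted p-values of limma were 0.543 and 0.863. With the processed signal SLA-DMA lay 0.33 lower in kidney than in liver and was called (adjusted p = 0.00325). The other SLA-DMA probe, A_72_P427349, parted from its neighbour here: kidney lay 0.87 below liver and level with GM, with a difference of 0.00 (SE 0.13).

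The chains of the peptide-presenting pairs were ordered differently. SLA-DQB1 averaged 14.42 ± 0.40 in GM, 14.75 ± 0.32 in liver and 15.82 ± 0.66 in kidney. Every pig with a value, 15 of 15, had more SLA-DQB1 in kidney than in liver, by 1.07 on the log2 scale or 2.10-fold (SE 0.12, limma adjusted p = 5.32e-10). SLA-DRA, measured by A_72_P176171, averaged 13.96 ± 0.29, 14.44 ± 0.28 and 15.20 ± 0.67 in the same order of tissues. Its kidney level exceeded the liver level in 13 of 16 pigs, by 0.76 (SE 0.15, adjusted p = 2.42e-05). SLA-DRB1, measured by A_72_P379003, averaged 13.86 ± 0.44, 14.57 ± 0.35 and 15.11 ± 0.44. The bright probes of these 3 genes thus stood in the order GM, liver, kidney in this normalization. The step from liver to kidney shrank with the scaling. Processed signal gave 0.50 for SLA-DQB1, which was still called, 0.20 for SLA-DRA (adjusted p = 0.142) and −0.02 for SLA-DRB1 (adjusted p = 0.857). The median signal scaled to the 75th percentile gave 0.53, 0.29 and 0.07, with SLA-DRB1 not called. The step of SLA-DQB1 from GM to liver was 0.10 and 0.13 under these scalings and was not called. SLA-DQA1 did not follow its partner SLA-DQB1. Its brightest probe A_72_P244477 averaged 13.34 ± 0.34 in GM and 14.00 in both liver (SD 0.35) and kidney (SD 0.70), and its other probes, A_72_P227742 and A_72_P233002, were 0.90 and 0.84 lower in kidney than in liver.

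CD74, the chaperone of all these pairs, was the only gene of the 7 that was lower in kidney than in GM on every probe. Its probe A_72_P395573 averaged 10.60 ± 0.27 in liver, 9.93 ± 0.26 in GM and 9.61 ± 0.30 in kidney. Of 16 pigs, 14 had a kidney value below that of their GM, by 0.32 on average (SE 0.09, limma adjusted p = 0.00313). The second CD74 probe, A_72_P223292, fell by 0.40 (SE 0.11). Both probes lay 0.99 lower in kidney than in liver, with 1 of 16 pigs higher in kidney.

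Of the 18 member probes, 12 were called higher in kidney than in GM, where 40.0% of all probes were, and 2 were called lower. With a difference of at least 1 on the log2 scale as well, 9 members were called higher, against 17.5% of all probes. Between kidney and liver 7 were called higher and 7 lower in kidney. This split stood against 70.2% of all probes called in either direction and 36.6% called higher in kidney. Only SLA-DQB1 passed a difference of at least 1 on the log2 scale as well, in kidney, as did 13.9% of all probes. The split moved with the scaling: the processed signal gave 3 higher and 9 lower, the median signal scaled to the 75th percentile gave 4 and 9, and the fit without the dim arrays gave 7 and 6. The second scaling shifted the median of all probes by −0.38 between kidney and liver and by −0.60 between kidney and GM. These scalings gave 11 and 10 members called higher in kidney than in GM, and 2 called lower each. Probes of 1 gene parted as well. For SLA-DRB1, A_72_P379003 was 0.53 higher in kidney than in liver and A_72_P246677 0.53 lower. For SLA-DRA, A_72_P348363 differed by −0.19 from liver to kidney (adjusted p = 0.382) while the other 3 probes were called higher in kidney. Other class II loci with closely similar sequence had no probe named here, and whether these probes also bind their transcripts was not tested.

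**Figure D1:**
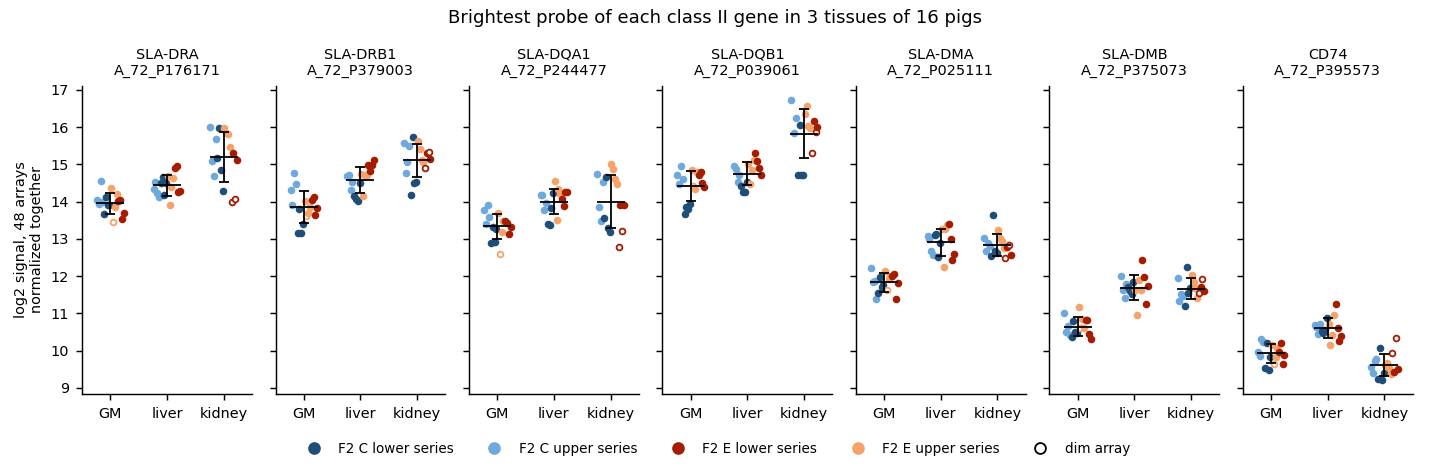
Log2 signal of the brightest probe of each gene in every pig (points) in GM, liver and kidney after joint normalization of the 48 arrays, with the mean and its SD as bars. In this normalization SLA-DQB1, SLA-DRA and SLA-DRB1 were highest in kidney, SLA-DMA and SLA-DMB were level in liver and kidney, and CD74 was lowest in kidney (9.61) and highest in liver (10.60).

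Whether the diet of the grandsire was followed by a change in class II expression was asked within each tissue. No member probe was called between F2 E and F2 C in any tissue. With limma, 0 of 18 probes had an adjusted p below 0.05 in GM, liver or kidney, where 0.769%, 0.0937% and 0.0119% of all probes did. At an unadjusted p below 0.01 the counts were 1, 1 and 0 of 18, against 5.71%, 2.45% and 1.0% of all probes. At an unadjusted p below 0.05 they were 1, 2 and 0, against 16.1%, 8.29% and 3.89%. Over the members, the log2 ratio (F2 E minus F2 C) had a median of −0.12, 0.05 and −0.01 in GM, liver and kidney. The 95% intervals of single probes reached 0.28 to 0.49 to either side in GM, 0.27 to 0.45 in liver and 0.30 to 0.75 in kidney. These intervals are not adjusted over all probes, so differences larger than these can also go without a call. The largest member ratios, −0.61 in GM and 0.45 in liver, were not called.

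In GM, 14 of the 18 probes were lower in F2 E, and the SLA-DRB1 probe A_72_P246677 had the smallest p. It ranged from 10.23 to 11.55 with a median of 10.61 in F2 C and from 9.56 to 10.67 with a median of 10.21 in F2 E. The ranges overlapped. The difference was −0.61 on the log2 scale (SE 0.19, limma adjusted p = 0.130), and an exact permutation test over the 12870 splits of the pigs gave an unadjusted two-sided p of 0.00715. The 4 other SLA-DRB1 probes differed by −0.36 to −0.02.

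SLA-DQB1, the β chain of the DQ pair, had similar positive ratios in all 3 tissues without a call. In liver it ranged from 14.34 to 15.11 with a median of 14.64 in F2 C and from 14.57 to 15.48 with a median of 15.10 in F2 E. In GM the range was 13.00 to 14.43 with a median of 13.58 in F2 C and 13.73 to 14.30 with a median of 14.02 in F2 E. In both tissues the lowest F2 E pig lay above the F2 C animals C5, C6 and C7, and the ranges overlapped higher up. In GM, liver and kidney the ratios were 0.37, 0.40 and 0.40 (SE 0.19, 0.14 and 0.27), and none was called (limma adjusted p of 0.349, 0.423 and 1.00). Exact permutation tests gave unadjusted p-values of 0.0922, 0.0172 and 0.197. The bright SLA-DRB1 probe A_72_P379003 had the highest ratio in liver, 0.45 (SE 0.15, adjusted p = 0.383, exact permutation p = 0.0138), and a ratio of −0.02 (SE 0.22) in GM. SLA-DRA, the chain that pairs with SLA-DRB1, differed by −0.13, 0.13 and −0.02 in GM, liver and kidney on A_72_P176171. In kidney this ratio was 0.31 without the dim arrays of E5 and E7.

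The line difference was also compared between tissues in limma with the pig as a random block. No member probe was called, and none had an unadjusted p below 0.05, in liver against GM, kidney against GM or kidney against liver. Of all probes, 0.122%, 0.0464% and 0.0203% were called in these contrasts and 7.48%, 5.7% and 2.28% had an unadjusted p below 0.05. The member differences of ratios lay between −0.12 and 0.43 for liver against GM, −0.17 and 0.36 for kidney against GM, and −0.34 and 0.15 for kidney against liver.

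The values of SLA-DQB1 and of the bright SLA-DRB1 probe differed between the sets of pigs within a line. SLA-DQB1 in GM was 13.00, 13.22, 13.16 and 13.31 in C5, C6, C7 and C8. The other 12 pigs, control pigs C1 to C4 included, lay between 13.73 and 14.43. The 4 control pigs of the lower series, which also shared a slide in GM, thus stood below every other pig. How many other GM probes set these pigs apart was not counted. In kidney SLA-DQB1 was 15.01, 15.01 and 15.00 in C5, C7 and C8, below all other pigs (15.51 to 16.80), while C6 had 16.18. In liver the same 4 pigs had 14.52, 14.34, 14.35 and 14.64, and only C8 lay within the range of the others (14.57 to 15.48).

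Split by series, F2 E exceeded F2 C in SLA-DQB1 among the lower pig numbers by 0.84, 0.69 and 0.68 in GM, liver and kidney. Among the upper numbers the difference was −0.10, 0.10 and −0.04. For the bright SLA-DRB1 probe the lower series differed by 0.58, 0.86 and 0.38 and the upper by −0.62, 0.03 and 0.07. In a limma F-test over the 4 sets, 2 of the 18 members were called in GM, SLA-DQB1 and the bright SLA-DRB1 probe (adjusted p = 0.00336 and 0.0134). The share of all probes called there was larger, 16.2%. No member was called in liver or kidney, where 1.9% and 2.87% of all probes were. SLA-DQB1 had adjusted p-values of 0.127 and 0.117 there, and SLA-DRB1 0.0523 and 0.429. Without the dim array of E2, the SLA-DQA1 probe A_72_P233002 was also called between the sets in GM (adjusted p = 0.0271), against 16% of all probes.

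The liver slides shared by both lines allow the lower series to be compared within a slide. The bright SLA-DRB1 probe was 14.21 and 14.13 in C5 and C6 and 15.14 and 14.97 in E5 and E6. On the next slide it was 14.09 and 14.61 in C7 and C8 and 15.12 and 15.27 in E7 and E8. Both F2 E pigs lay above both F2 C pigs on each slide, with differences of 0.88 and 0.84. SLA-DQB1 showed the same order, with differences of 0.93 and 0.45. With the liver slide as a fixed block the SLA-DRB1 ratio was 0.86 and was called (limma adjusted p = 0.0335), where 0.409% of all probes were. Each of the other liver slides held 1 line, so this ratio rests on the 8 pigs of the lower series. No other member was called in that fit. SLA-DRA differed by 0.37 and −0.09 within these slides and the SLA-DRB1 probe A_72_P246677 by 0.02 and −0.76.

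**Figure D2:**
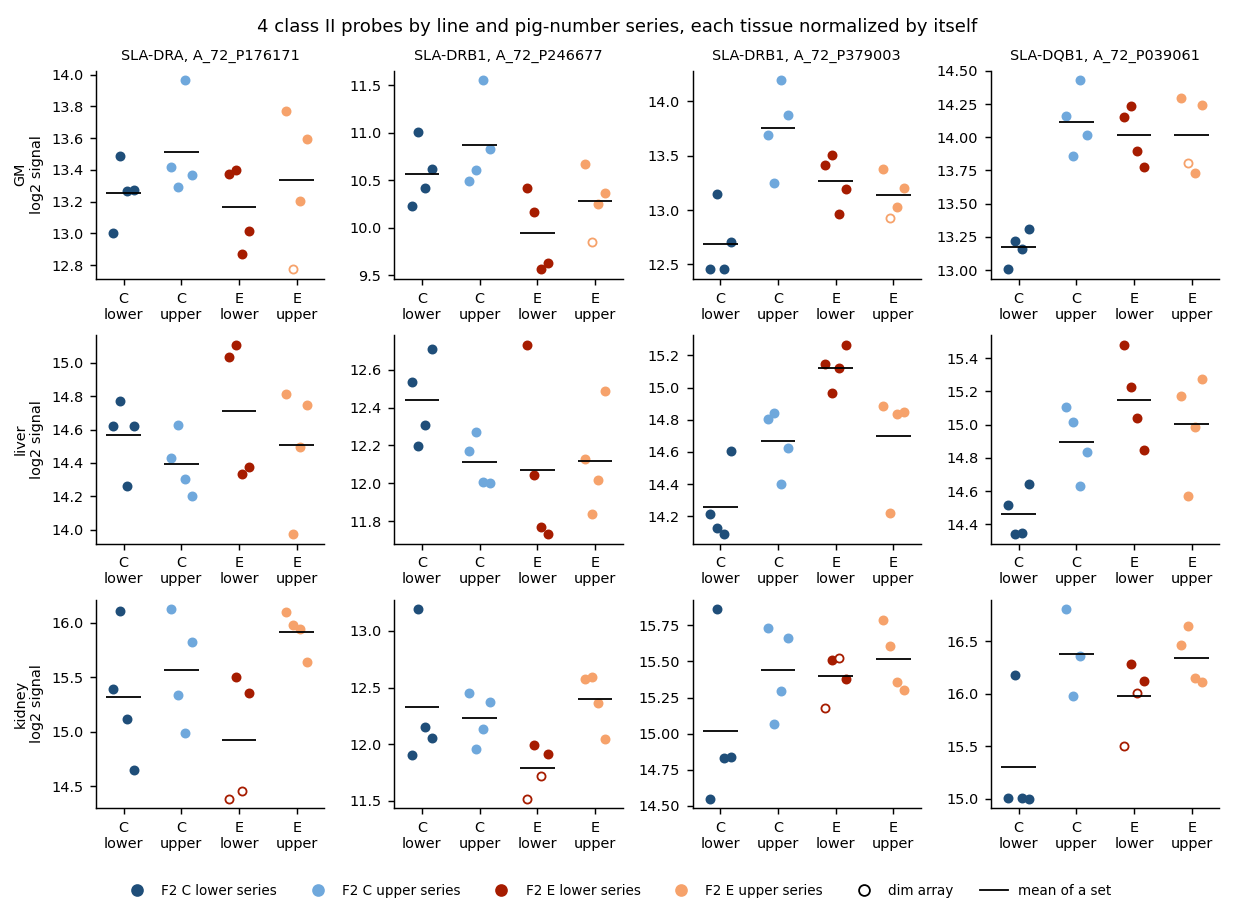
Log2 signal of 4 class II probes in each pig, by tissue and by the 4 sets of line and pig-number series, with each tissue normalized by itself. Lines mark set means and open symbols the dim arrays. SLA-DQB1 was 13.00 to 13.31 in the GM of C5 to C8 and 13.73 to 14.43 in the other sets.

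Single pigs stood out over many class II genes at once. In GM, pig C3 had the highest value of 14 of the 18 probes. Its bright SLA-DRA value was 13.97, above E1 with 13.77, and its SLA-DRB1 value on A_72_P379003 was 14.20, above C4 with 13.87. In liver, pig E5 was highest for 13 probes and E2 lowest for 10. SLA-DRA there was 15.04 in E5, second to E6 with 15.11, and 13.97 in E2. In kidney, C6 was highest for 7 probes, while E5 was lowest for 10, on 1 of the dim arrays. In GM, where its array was dim, E2 was lowest for 8 probes. These counts describe probes of 1 array that are not independent of each other.

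The SD over the 16 pigs had a median over the members of 0.40 in GM, 0.32 in liver and 0.49 in kidney on the log2 scale. The dim arrays left out, the median was 0.34 in GM and 0.40 in kidney. In kidney the SLA-DQA1 probe A_72_P227742 had an SD of 0.75 (0.65 without the dim arrays), larger than that of 93.7% of all present probes, and the bright SLA-DRA probe 0.58 (0.46 without them), larger than 84.9%. The editor chains varied less, with an SD of 0.27 for both SLA-DMA (A_72_P025111) and SLA-DMB in kidney, larger than 32.4% and 30.7% of probes. In GM 15 of the 18 members, in liver 13 and in kidney 14 had a larger SD than the median present probe, a description given without a test.

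Barrows and females were compared within each tissue with the line as a covariate. No member probe was called in any tissue. Of all probes, 0.121%, 0.121% and 0.0921% were called in GM, liver and kidney. In the liver, 17 of the 18 probes were higher in barrows, and 13 of 18 (72.2%) had an unadjusted p below 0.05, where 14.2% of all liver probes did. The member probes share the same arrays and are not independent of each other, so such counts are a description. The members' median difference was 0.30 on the log2 scale (−0.05 to 0.66), against 0.02 for all liver probes. The smallest adjusted p was 0.153. In GM all 18 probes were higher in barrows, by a median of 0.18, with 1 of 18 at an unadjusted p below 0.05 (3.86% of all probes). In kidney 15 were higher, by a median of 0.08, with 0 of 18 at that threshold (0.939% of all probes) and 2 without the dim arrays.

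The largest of these liver differences was of an SLA-DRA probe, A_72_P348363, with 0.66 (0.46 with the slide in the model). The bright SLA-DRA probe A_72_P176171 ranged from 14.43 to 15.11 with a median of 14.76 in the 8 barrows and from 13.97 to 14.62 with a median of 14.32 in the 8 females. The barrow mean was 14.77 and the female mean 14.32, a difference of 0.45 (SE 0.11, limma adjusted p = 0.172), and the ranges overlapped. The remaining SLA-DRA probes differed by 0.39 and 0.53. SLA-DMA followed with 0.54 (SE 0.13) and 0.44 (SE 0.12) on its probes. SLA-DQB1 differed by 0.28 (SE 0.13) and the CD74 probes by 0.31 and 0.26. The exceptions were the bright probes of SLA-DRB1, with 0.08, and SLA-DQA1, with −0.05. With the slide in the model they had 0.32 and 0.40, and both then had an unadjusted p below 0.05.

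The slide runs partly along with sex in the liver, since C5, C6, E5 and E6 are barrows and C7, C8, E7 and E8 females. The other liver slides held both sexes of 1 line. On the slide of E1 to E4 the members had a higher mean in the barrows (E1 and E4), by a median of 0.59 (0.19 to 0.96). On the slide of C1 to C4 they were again higher in the barrows (C1 and C2), by a median of 0.19 (0.04 to 0.43). How often other liver probes differ in this way within a slide was not counted. With slide and line in the model, 18 of 18 were higher in barrows, by a median of 0.38 (0.21 to 0.58), the highest being SLA-DMA on A_72_P427349. At an unadjusted p below 0.05 there were then 12 of 18, against 3.51% of all probes, and the smallest adjusted p was 0.756. Among marker lists in liver, the macrophage and dendritic cell list (8 of 16 genes with a probe) was 0.12 higher in barrows, the B cell list (2 of 7) 0.25, the T cell list (6 of 9) 0.22 and the endothelial list (2 of 5) −0.02. Their part in the difference was not tested.

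Whether a pig with high class II expression in 1 tissue also had it in another was examined as Pearson's r over the 16 pigs for each probe, each tissue being normalized by itself. No member was called after adjustment over all probes present in both tissues, where 1.6% were called between GM and liver, 1.72% between GM and kidney and 1.71% between liver and kidney. Between GM and liver 17 of 18 probes had a positive r, with a median of 0.34 (−0.11 to 0.74). Between GM and kidney 17 were positive, with a median of 0.27 (−0.01 to 0.64). Between liver and kidney 14 were negative, with a median of −0.14 (−0.37 to 0.34). At an unadjusted permutation p below 0.05 there were 5, 3 and 0 probes. Shares of all probes at that threshold, or with a positive r, are not given here, so these counts are a description only. Without the dim arrays no member was called either. There, 15 of 18 were positive between GM and liver, with a median of 0.26 over 15 pigs, and 18 of 18 between GM and kidney, with a median of 0.43 (0.07 to 0.75) over 13 pigs. Between liver and kidney 11 were then negative and 7 positive, with a median of −0.04 (−0.35 to 0.54) over 14 pigs.

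SLA-DQB1 had the highest r between GM and liver, 0.74 (Spearman's rho 0.69, permutation p = 0.00126 and 0.00388, adjusted p = 0.0668 and 0.161). Leaving out C5 and C7, the pigs farthest from the GM median, gave 0.63. Over the 12 pigs outside C5 to C8 it was 0.30. SLA-DMA behaved differently, since its r of 0.69 (rho 0.71, adjusted p = 0.120 and 0.146) was 0.77 over those 12 pigs and 0.58 without E7 and C4. Between GM and kidney SLA-DQB1 had 0.64 over 15 pigs and −0.09 over the 12 pigs outside C5 to C8 that had a value, and the bright SLA-DRB1 probe 0.57 over 16 and 0.09 over 12. The relations of these 2 probes thus rested on the pigs C5 to C8. SLA-DMB, the partner of SLA-DMA, had 0.56 between GM and kidney, 0.54 over the 12 pigs and 0.72 without the dim arrays. The CD74 probe A_72_P395573 went from 0.24 to 0.75 without the dim arrays (permutation p = 0.00249, adjusted p = 0.107).

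Within the lines the GM to liver relation parted. In F2 E all 18 probes had a positive r (0.32 to 0.84), and in F2 C 12 of 18 had a negative one (−0.65 to 0.68). SLA-DRA was at 0.80 in F2 E and −0.32 in F2 C, each over 8 pigs, and the difference was not tested. Without the dim array of E2, 17 of 18 were positive in F2 E (−0.03 to 0.82), over 7 pigs. The other tissue pairs parted otherwise. Between GM and kidney 1 of 18 was negative in F2 C and 7 in F2 E, or 2 over 5 F2 E pigs without the dim arrays. Between liver and kidney 9 were negative in F2 C and 17 in F2 E, or 14 over 6 F2 E pigs without the dim arrays.

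**Figure D3:**
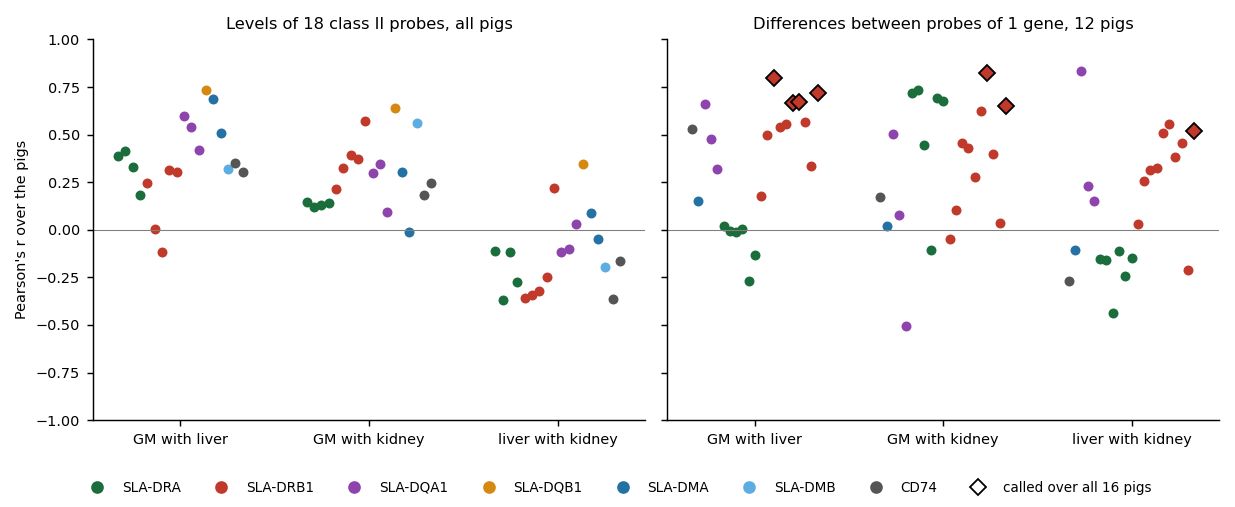
Pearson's r over pigs between tissues for the level of each of the 18 class II probes (left, all pigs) and for the difference between probes of the same gene (right, 21 probe pairs over the 12 pigs outside C5 to C8). Colours mark genes and diamonds the pairs called over all 16 pigs, all of them of SLA-DRB1. The median of the levels between liver and kidney was −0.14, and −0.04 without the dim arrays, which are included here.

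Since several genes had more than 1 probe, the log2 difference between probes of a gene was also followed across tissues. A difference within an array removes whatever raises or lowers all probes of the gene together. There were 21 such pairs in 5 member genes and 728 pairs in 354 other genes. The difference was called as correlated over the 16 pigs for 4 member pairs between GM and liver, 2 between GM and kidney and 1 between liver and kidney. All of these pairs belonged to SLA-DRB1. Of all 749 pairs, 1.34%, 1.74% and 1.2% were called. The pair of A_72_P246677 and A_72_P379003 was the one member pair called in all 3, and 4 pairs of other genes shared this (1 of SLA-3, 2 of FGL2 and 1 of LOC396781). SLA-3 is a class I gene of the same complex.

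The difference A_72_P246677 minus A_72_P379003 set the pigs C5 to C8 apart in every tissue. It lay between −2.23 and −2.03 in their GM, −1.93 and −1.68 in their liver, and −2.78 and −2.65 in their kidney. In the other 12 pigs it was −3.57 to −2.64 in GM, −3.53 to −2.36 in liver and −3.81 to −2.99 in kidney. The 4 pigs overlapped with no other pig in any of the 3 tissues. Pigs E5 to E8 had −3.57 to −3.00 in GM, −3.53 to −2.41 in liver and, with the dim arrays of E5 and E7, −3.81 to −3.47 in kidney. C1 to C4, of the same line as C5 to C8, had −3.19 to −2.64 in GM, −2.64 to −2.40 in liver and −3.29 to −3.11 in kidney. These 2 sets overlapped in GM and liver.

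Because of this gap no r is given over all pigs. Over the 12 other pigs, r of the difference was 0.72 between GM and liver, 0.65 between GM and kidney and 0.52 between liver and kidney (permutation p = 0.00733, 0.0217 and 0.0818, adjusted over all pairs 0.323, 0.557 and 0.739). Spearman's rho was 0.57, 0.65 and 0.42 (permutation p = 0.0591, 0.0253 and 0.178, adjusted 0.629, 0.525 and 0.740). No member pair was called over these 12 pigs. After removal of the 4 set means, r was 0.45, −0.01 and −0.05. The difference A_72_P110316 minus A_72_P379003 had 0.67, 0.82 and 0.38 over the same 12 pigs. The levels of A_72_P246677 and A_72_P379003 had an r of 0.51, −0.16 and 0.59 in GM, liver and kidney over 16 pigs. The 4 probes of SLA-DRA behaved otherwise, with a median r of 0.91, 0.90 and 0.93 between their levels in GM, liver and kidney.

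**Figure D4:**
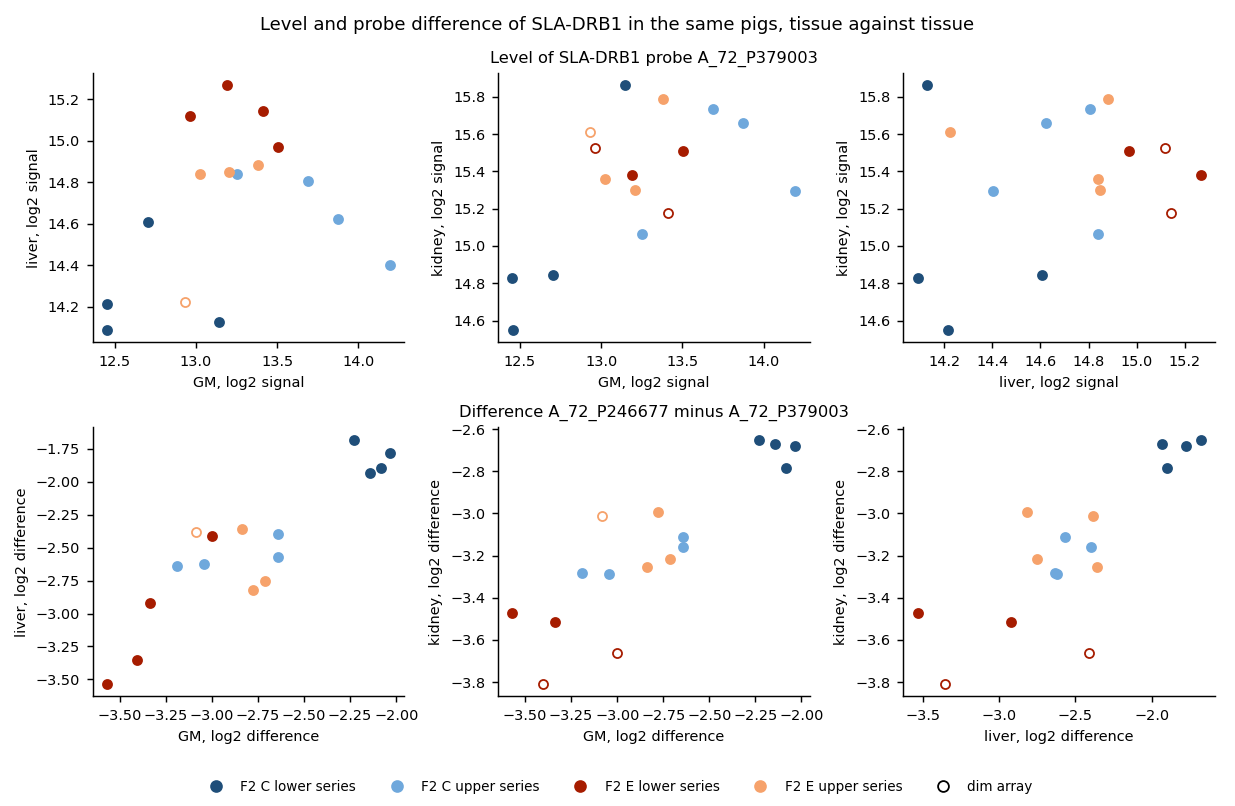
The SLA-DRB1 probe A_72_P379003 in pairs of tissues, each point a pig: its log2 level (top) and the log2 difference A_72_P246677 minus A_72_P379003 (bottom), coloured by the 4 sets. C5 to C8 stand apart in the difference (−2.23 to −2.03 in GM, −2.78 to −2.65 in kidney), and their levels overlap more with those of other pigs.

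Within a tissue the r between the 7 genes over the pigs was mostly positive. Over the 21 pairs of genes, each represented by its brightest probe, r had a median of 0.59 in GM (0.33 to 0.85), 0.54 in liver (0.16 to 0.85) and 0.59 in kidney (−0.18 to 0.96). These values are a description of 16 pigs that share arrays and slides, and they were not compared with pairs of other genes. SLA-DRB1 and SLA-DQB1 had 0.82, 0.85 and 0.91. SLA-DRA and SLA-DQA1 had 0.83 in GM and 0.96 in kidney but 0.16 in liver. This low value belonged to the bright SLA-DQA1 probe alone. The SLA-DQA1 probes A_72_P233002 and A_72_P227742 had 0.78 and 0.68 with the same SLA-DRA probe in liver. The peptide editor chains SLA-DMA and SLA-DMB had 0.79, 0.67 and 0.81.

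CD74 had the lowest values in kidney, −0.18 with SLA-DRA and −0.04 with SLA-DQA1. Without the dim kidney arrays of E5 and E7 these became 0.51 and 0.55, and the median over all pairs in kidney 0.74 (0.51 to 0.95). SLA-DRA was 14.39 and 14.46 in these arrays, below the 14.65 to 16.12 of the other pigs. CD74 was 10.52 and 10.90 in them, and of the other pigs C6 alone, with 10.65, exceeded 10.35. The part of the dim signal in these values was not tested.

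**Figure D5:**
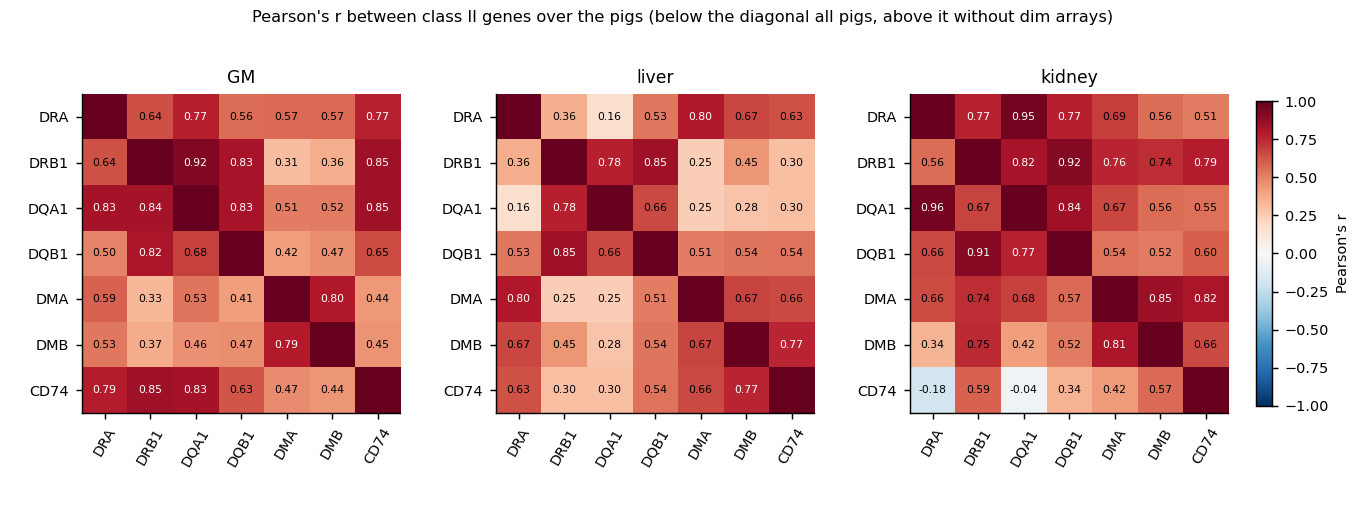
Pearson's r over pigs between the brightest probes of the 7 genes in GM, liver and kidney, below the diagonal for all pigs and above it without the dim arrays. The kidney values of CD74 with SLA-DRA change from −0.18 to 0.51.

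Among 24222 probes present in all 3 tissues, the other 3 SLA-DRA probes ranked next to the bright SLA-DRA probe by mean r. Other probes of SLA-DQA1 ranked 5 and 7, of SLA-DMA 9 and of SLA-DRB1 11, 12, 22 and 41. The brightest probes of SLA-DMA, SLA-DQA1, SLA-DQB1, SLA-DRB1 and SLA-DMB ranked lower, at 37, 90, 396, 757 and 812. Only 1933 of the ranked probes had a RefSeq symbol. Outside the members, the genes with such a symbol closest to the bright SLA-DRA probe were TAP1 and PSME1 (mean r of 0.73 each), ADA2 and PECAM1 (0.72 each) and CASP1 (0.71). TAP1 encodes a subunit of the peptide transporter for class I molecules and PSME1 a proteasome activator subunit, and PECAM1 marks endothelium. In GM, liver and kidney TAP1 had 0.72, 0.63 and 0.85 and PECAM1 0.48, 0.85 and 0.82. After omission of the dim arrays TAP1 had 0.62 in GM and 0.76 in kidney, and PECAM1 0.32 and 0.67. The CD74 probes A_72_P223292 and A_72_P395573 ranked 2225 and 2278, with 0.84 and 0.79 in GM and −0.18 in kidney for both. Without the dim arrays these kidney values were 0.29 and 0.51.

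Genes around the pathway were counted from lists of symbols. Of the class II regulators 1 of 8 had a probe, NFYB, a subunit of the promoter factor NF-Y, which was 0.74 lower in kidney than in GM. Of the interferon gamma list 5 of 9 had a probe. Among them IRF1 was called higher in liver than in GM, by 1.39, and JAK1 lower, by 0.25. Of the endosomal processing list 5 of 10 had a probe. The proteases CTSB and CTSH were 2.11 and 1.84 higher in liver than in GM and 2.78 and 2.95 higher in kidney than in GM. IFI30, which reduces disulfide bonds of antigens in the endosome, was 1.98 higher in kidney than in GM. Of the 5 endosomal genes, 4 were called higher and 1 lower in kidney than in GM, where 40.0% of all probes were called higher. Against liver, 3 were called higher and 2 lower in kidney, where 36.6% of all probes were called higher. No gene of these lists and no cell type marker was called between the lines in any tissue where it was present.

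Markers of antigen-presenting cells and lymphocytes also differed between the tissues. Of 8 macrophage and dendritic cell genes with a probe, 7 were called higher in liver than in GM (35.7% of all probes were), CD14 by 6.34, AIF1 by 2.96 and CD163 by 2.81. CD80, a costimulator of T cells, was called lower by 0.48. In kidney, 4 were called higher than in GM, where 40.0% of all probes were, and 2 lower. AIF1 was 2.39 higher there, and CD14 and CD80 were 0.50 and 0.47 lower. Against liver, 1 of the 8 was called higher in kidney and 5 lower, where 70.2% of all probes were called in either direction. All 6 T cell genes with a probe were called higher in liver than in GM, from 0.36 for CD3D to 1.74 for CD4. These 6 were also all called lower in kidney than in liver. The B cell gene CD79A was not present in GM. Their part in the tissue differences of the class II genes was not tested.

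Over the pigs, the mean of the T cell list had an r with SLA-DRA of 0.84 in GM and 0.88 in kidney (0.79 and 0.78 without the dim arrays) but 0.10 in liver. Only 3 genes of this list were present in GM, with a low mean of 5.82 to 6.92 on the log2 scale. In liver and kidney 6 were present, so these values do not rest on the same genes. The macrophage and dendritic cell list had 0.85 with SLA-DQB1 in kidney, 0.74 in liver and 0.28 in GM. The interferon gamma list had 0.84 with SLA-DRA and 0.90 with SLA-DQA1 in kidney, and at most 0.36 with any of the 7 genes in liver. The endosomal processing list was negative with all 7 genes in kidney, from −0.32 with SLA-DRA to −0.80 with SLA-DMB and SLA-DRB1. Without the dim arrays its r with SLA-DRA was −0.74. The kidney marker list also moved with SLA-DRA in kidney (r of 0.85, and 0.73 without the dim arrays). The part of the make-up of each tissue sample in these relations was not tested.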

How the data were processed

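RNA of GM, liver and kidney from 16 F2 pigs was hybridised to 1-colour Agilent porcine arrays, 48 in all. The authors deposited scanner tables, which Feature Extraction 10.5.1.1 wrote per the file headers (the study's methods name another version), with the median, background and processed intensity of each spot. A table per tissue holds their normalized values with their ratios and p-values of F2 E over F2 C and was not used. Groups come from the sample descriptions. Pig numbers in the titles tie the tissues of a pig together, whereas a replicate number names different pigs in different tissues and does not pair F2 E with F2 C.

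Control spots were dropped, outlier-marked spots set missing and probes averaged. The log2 median intensity was quantile-normalized within each tissue, and over the 48 arrays for tissue contrasts. A probe was present when, in at least 50% of the arrays of a group, its signal was above 25 and well above background. Tests used limma 3.58.1 in R 4.3.3 with Benjamini-Hochberg adjustment over all present probes, a call being an adjusted p below 0.05. Single probes also got exact permutation tests over the 12870 splits, and correlations 100000 permutations (smallest p 1e-05). Slides were read from the tables, and an array was dim when its 99th percentile was under 50% of the tissue's median. Probe names followed the RefSeq accession of each spot.

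The brightest of a gene's probes by mean over 48 arrays stood for the gene, the 5 most similar genes were ranked by mean r with SLA-DRA over the 3 tissues, and list genes were named if called or among the 3 brightest. Single values of 2 list genes are not reported here. Members and lists were chosen with earlier results of these data known. Alternatives covered the signal and its scaling, normexp, filters, slide and replicate blocks, sex, dim arrays, left-out pigs and the t-test of the study's methods. The scripts were tested on simulated data. The number of arrays limits the precision. The pigs were separate animals.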

Additional observations from a re-analysis of the deposited data

Results flagged for a closer look

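In 4 of the 108 groups of 8 pigs (a probe in 1 tissue and line), or 3.7%, the highest or lowest pig stood far from the rest by Dixon's test, where chance alone gives about 1 in 20. Pig C3 had 11.31 on the SLA-DRA probe A_72_P313343 in GM, above the next F2 C pig at 10.63. Pig E2 had 14.22 on the SLA-DRB1 probe A_72_P379003 in liver, below the next F2 E pig at 14.84. In kidney, pig C6 had 13.19 on the SLA-DRB1 probe A_72_P246677 (next 12.45) and 14.07 on the SLA-DMA probe A_72_P025111 (next 13.49). None of these 4 values came from a dim array.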

How the results depend on the processing

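No member was called between the lines under any setting except the liver slide as a fixed block (1, SLA-DRB1 A_72_P379003). At an unadjusted p below 0.01 the liver count of 1 became 0 with the methods' t-test, either scaling to the 75th percentile, marked spots removed before normalization or the replicate block. It became 2 with normexp, no filter on presence, sex, or the slide as a random or fixed block. The GM count of 1 became 0 with the processed signal and with the slide as a random block. Leaving out 1 pig gave 0 to 1 in GM and 0 to 2 in liver. The replicate block changed no other call, and the numbers did not pair the pigs: deviations of same-numbered pigs correlated by −0.16 to 0.33 in GM, −0.09 to 0.58 in liver and −0.57 to 0.46 in kidney, with 2, 6 and 3 of 8 pairs over 0.1, and 1, 3 and 1 of 8 pigs correlated best with their own number. Pigs of both lines share slides in the liver.

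With a log2 difference of at least 1 also required, 5 members were called between liver and GM, 9 between kidney and GM and 1 between kidney and liver. All were higher in the tissue named first, as were 15.0%, 17.5% and 13.9% of all probes. Without the dim arrays, 2 kidney members had an unadjusted p below 0.05 between the sexes. Member pairs called for the difference between probes fell from 4, 2 and 1 to 0, 0 and 0 without C5 to C8. Removing the set means gave 1 between GM and liver and 0 between GM and kidney, the processed signal gave 2 and omitting the dim arrays 7 between GM and liver, and Spearman's rho gave 0 between liver and kidney. Between GM and liver 0 to 1 members were correlated when 1 pig was left out, the 1 being SLA-DQB1 without C3 or C5.

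These values turned their sign. Without the dim arrays the line ratios of A_72_P379003 and A_72_P244477 in GM were 0.0202 and 0.00689, that of A_72_P176171 in kidney 0.31, and the kidney to liver difference of A_72_P348363 0.00825. In liver A_72_P176171 had −0.0021, −0.0124 and −0.00427 with the processed signal, the scaled median signal and marked spots removed first. With set means removed, r was −0.15 for A_72_P379003 between GM and liver and −0.0424 for A_72_P176171 and −0.12 for A_72_P039061 between GM and kidney. Between liver and kidney it was then 0.11 for A_72_P176171, −0.22 for A_72_P244477, −0.19 for A_72_P379003 and −0.26 for A_72_P039061. A_72_P176171 also had 0.0382 by rho and 0.0257 without dim arrays there, and A_72_P244477 −0.0272 with line means removed. Between GM and kidney A_72_P244477 had −0.00964 with the processed signal. The SLA-DRB1 probe difference had −0.00900 between GM and kidney and −0.0504 between liver and kidney with set means removed. Left-out pigs moved ratios to −0.13 to 0.12 (A_72_P379003) and −0.18 to 0.00689 (A_72_P244477) in GM and −0.14 to 0.12 (A_72_P176171) in kidney, and r to −0.0304 to 0.31 and −0.0137 to 0.37 (A_72_P176171 and A_72_P244477, GM with kidney) and to −0.22 to 0.11 and −0.16 to 0.17 (the same, liver with kidney). The causes were not tested. Normexp on the mean signal was not run, since the tables used here hold the median signal, and normexp on the latter, the sets, the dim arrays and the probe differences were added after seeing the data.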
